A study of Homo sapiens with 6 samples.

Results

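Replacement histone genes encode histone variants whose mRNAs carry a poly-A tail. The 8 genes described are H2AZ1, H2AZ2, H3-3A, H3-3B, H1-10, MACROH2A1, MACROH2A2 and H2AX. They were taken as a list of symbols and found by joining the counted Ensembl transcripts to a gene annotation, 1 transcript per gene, out of 37339 transcripts matched in all. All libraries came from K562 cells, an erythroid leukaemia cell line, with no treatment named and a common source of cells, with 4 RNA-seq and 2 PRO-seq libraries. PRO-seq sequences the RNA still held by engaged RNA polymerase, which the study takes as a measure of transcription. RNA-seq of total RNA after ribosomal RNA depletion reads the RNA present at steady state. By the study's own account, PRO-seq measures polymerase occupancy, which depends on elongation rate too, and the ratio of both assays assumes equilibrium. Neither was tested here. The question was how long the RNA of each transcription unit (TU) lasts, taken from its RNA-seq level over its PRO-seq level. By the study's methods the cells of all libraries shared a flask, so the p-values measure only the spread between libraries of that culture, which is technical.

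Histones of the replication-dependent kind are made in S phase from genes that mostly lack introns, and their mRNAs end in a conserved stem-loop bound by the stem-loop binding protein SLBP rather than in a poly-A tail. Replacement variants are made throughout the cell cycle and exchanged into chromatin outside replication. H2A.Z, from H2AZ1 and H2AZ2, takes the place of H2A near promoters. H3.3, the same protein from both H3-3A and H3-3B, is deposited by HIRA and by DAXX with ATRX. H1-10 is a linker histone, MACROH2A1 and MACROH2A2 encode H2A variants with a large macro domain linked to silent chromatin, and H2AX is phosphorylated around DNA breaks.

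The ends of the transcripts are shown because they differ between both kinds of histone mRNA. A stem of 6 bases that starts with GG, a loop of 4 bases that starts with TTT and the reverse complement of the stem was searched on the transcript's own strand. It was found in 20 of 22 canonical transcripts of replication-dependent histone genes (90.9%), in 45 of 18871 canonical mRNAs (0.238%), and among the 8 replacement genes in H2AX alone, where canonical means the transcript that Ensembl takes as the gene's main one. In H2AX it began at base 553 of the transcript, with 1024 bases after it, and the transcript went on to an ATTAAA close to its end. H2AX is known to give both stem-loop and polyadenylated mRNAs. The 4 stem-loops below, with the stem in capitals, lie on GRCh37 at chr11:118965608-118965623 (minus strand) for H2AX, chr1:149857738-149857753 (minus) for H2BC21, chr6:27778294-27778309 (plus) for H3C10 and chr6:26285359-26285374 (minus) for H4C8.
H2AX: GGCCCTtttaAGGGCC
H2BC21: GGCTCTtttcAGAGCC
H3C10: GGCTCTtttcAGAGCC
H4C8: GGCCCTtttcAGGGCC

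A poly-A signal, AATAAA or ATTAAA, stood in the last 60 bases of the canonical transcript in 6 of 8 replacement genes, in 2 of 22 replication-dependent genes and in 79.2% of all canonical mRNAs. Among counted transcripts, on which the levels rest, both kinds were closer: the signal stood in 5 of 8 replacement and 11 of 22 replication-dependent genes, and the stem-loop in 1 of 8 and 15 of 22. The last 30 bases are printed with the signal in capitals for H1-10 (chr3:129033614-129033643, minus strand), H2AX (chr11:118964584-118964613, minus) and H2AZ1 (chr4:100869243-100869272, minus), and for H3-3B both as counted (chr17:73774657-73774686, minus) and as canonical (chr17:73772515-73772544, minus), since these ends differ.
H1-10: ttgggcacAATAAAgcgtttaaacctttca
H2AX: attttATTAAAggattgttttttttttaaa
H2AZ1: ataagttcAATAAAggtcatatcccaaact
H3-3B counted: agagagcttaagtgaaggcagtttttatgg
H3-3B canonical: atgagactaaAATAAAatttttgaagttaa
The counted model of H3-3B ended upstream of the canonical poly-A signal. Neither hexamer was found in these windows in MACROH2A1 or in the canonical transcript of H2AZ2. The promoters, 250 bases upstream of the start in RefSeq (GRCh38.p14), were searched on both strands for CCAAT, the box bound by the factor NF-Y. It occurred 4 times each in H2AX, H3-3B and H2AZ2 and 3 times in H2AZ1, and was not found in H1-10 or MACROH2A2. At least 2 copies stood in 9.53% of all 35116 promoters listed, in 74.2% of 62 promoters of replication-dependent histone genes, and in 5 of the 12 promoters listed for the replacement genes, since some have several starts. A match is a run of letters and not a site.

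Each TU was counted on 1 transcript model, and that model sets the lengths by which counts become levels. H1-10 (ENST00000333762, chr3:129033614-129035129, minus strand, 1516 bp) and H2AX (ENST00000530167, chr11:118964584-118966175, minus, 1592 bp) each have 1 exon and no intron. MACROH2A1 (ENST00000511689, chr5:134670071-134734921, minus) and MACROH2A2 (ENST00000373255, chr10:71812602-71872038, plus) have 9 exons each, and for these 4 genes the counted transcript was the canonical one. For the other 4 it was not. H3-3B was counted on ENST00000586607 (chr17:73774657-73781567, minus, 4 exons), which starts far upstream of the canonical start. Only 704 of the 5911 bp open to PRO-seq, or 11.9%, lay inside the canonical transcript. H2AZ1 was counted on ENST00000511348 (chr4:100869243-100871512, minus, 2 exons), which the annotation labels as a retained-intron transcript, so that 47.0% of its 1843 exonic bases were exonic in the canonical mRNA.

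H2AZ2 (ENST00000222690, chr7:44866390-44887676, minus, 5 exons) had another last exon than its canonical transcript and shared 11.3% of its exonic bases with it. H3-3A (ENST00000366816, chr1:226249552-226259224, plus, 5 exons) shared 69.5%. Of its 75-base windows, the RNA-seq read length, 66.8% were found at other places in the genome, against 13.6% for H3-3B, 2.12% for H2AZ2 and none for the other 5 genes. Reads from such windows cannot be placed with certainty, so the levels of H3-3A are uncertain. Whether HTSeq counted by strand was not stated. Of the 8 genes, 5 overlap a counted gene on the other strand, whose reads could then not be told apart. The counts given next are totals over each counted gene, and reads within the overlaps were not measured. H3-3B overlaps UNK by 681 bp, and UNK had 966 PRO-seq counts against 538 for H3-3B. MACROH2A2 overlaps AIFM2 by 14060 bp (472 PRO-seq counts against 16), and MACROH2A1 overlaps PITX1-AS1 by 10305 bp (631 against 4706). H1-10 overlaps H1-10-AS1 by 767 bp (13 against 138) and H3-3A overlaps H3-3A-DT by 26 bp.

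Steady-state RNA spanned a wide range across the 8 genes, from H3-3B at 2179 TPM on average to MACROH2A2 near 0. TPM, a level per length of TU, gives each TU's share of the transcripts counted. In RNA-seq, H3-3B had 2182, 2203, 2097 and 2235 TPM in replicates 1 to 4, a mean of 2179 ± 58.8 (SD, n = 4) and more than 99.4% of the mRNAs tested. H2AZ1 followed with 707, 769, 732 and 767 TPM. MACROH2A1 had 352, 347, 355 and 335 TPM.

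H3-3A had 314, 321, 294 and 346 TPM in RNA-seq, and its range overlapped that of MACROH2A1. Below them, H2AX had 138, 146, 143 and 150.3 TPM and H2AZ2 had 127, 122, 126 and 130.0 TPM, without overlap. H1-10 was the lowest of the 7 expressed genes, with 63.7, 54.1, 68.2 and 61.4 TPM. The median mRNA tested had 31.1 TPM, so all 7 were above it in RNA-seq. With both lengths shared with the canonical transcripts, H3-3B stayed first at 2246 TPM and H2AZ1 next at 1303 TPM, but H2AZ2 came after them at 917 TPM. In this setting only the lengths were changed and all counts of the counted model were kept. Its values show how much the lengths matter and are not levels of the canonical transcripts.

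On the counted models, nascent transcription gave another order. H2AZ1 was again high, with 708 and 857 TPM in PRO-seq replicates 1 and 2. The intronless genes H1-10, at 475 and 602 TPM, and H2AX, at 462 and 572 TPM, came next and overlapped each other. H3-3A had 227 and 239 TPM.

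H3-3B, the highest of the 8 in RNA-seq, had 159.6 and 207 TPM in PRO-seq, and H2AZ2, at 175 and 179 TPM, lay within that range. MACROH2A1 had 147 and 151 TPM. This order also rests on the lengths. With both lengths shared with the canonical transcripts and the counts unchanged, H3-3B was first in PRO-seq too, at 1216 TPM. It was ahead of H2AZ1 at 618, H1-10 at 426 and H2AX at 409 TPM. The median mRNA had 49.7 TPM in PRO-seq, and these 7 genes stood above 90.2% or more of the mRNAs tested. PRO-seq replicate 2 was the higher for each of the 8 genes. Few counts lay behind the short windows of the intronless genes, with 60 and 78 for H1-10 and 67 and 85 for H2AX.

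MACROH2A2 was close to the limit of detection. It had 2, 0, 1 and 0 RNA-seq counts and 3 and 13 PRO-seq counts, or 0.210 and 0.887 TPM in PRO-seq. A count of 0 in RNA-seq replicates 2 and 4 allows up to 0.380 and 0.520 TPM, taking 3 counts as the limit, and this limit covers counting error only. MACROH2A2 did not pass the thresholds (PRO-seq over 10 TPM, RNA-seq over 1 TPM) and was not tested.

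**Figure D1:**
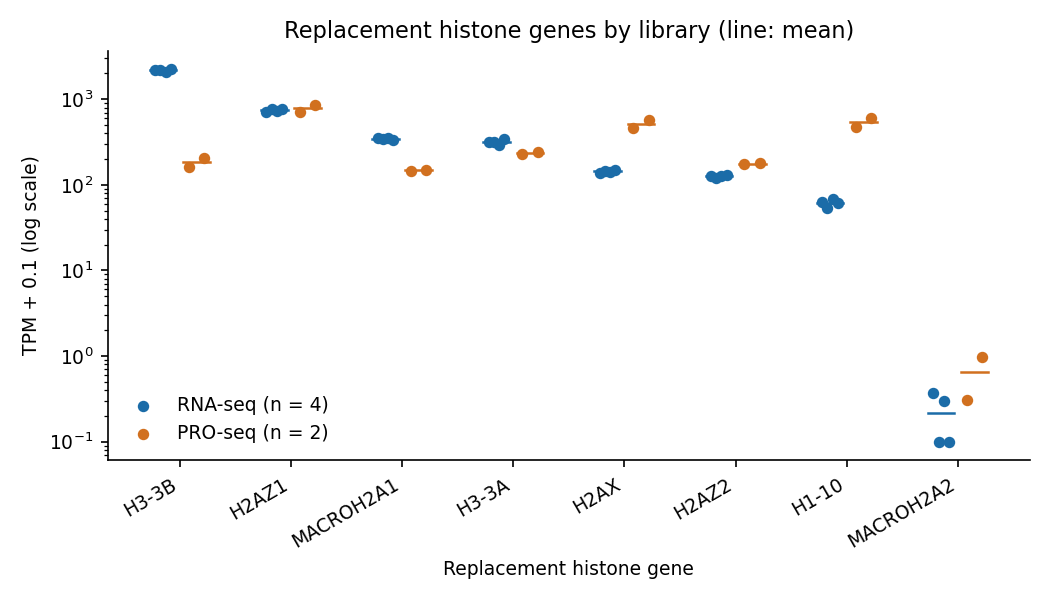
TPM + 0.1 on a log axis for the 8 replacement histone genes, with 1 point per library and a line at the mean of the 4 RNA-seq (blue) or 2 PRO-seq (orange) libraries. H3-3B lies highest in RNA-seq at 2097 to 2235 TPM but at 159.6 and 207 TPM in PRO-seq. H1-10, H2AX and H2AZ2 lie higher in every PRO-seq library than in any RNA-seq library.

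The relative half-life compares both assays: it is the RNA-seq level over the PRO-seq level, set so that the median mRNA is 0 on the log2 scale. Of the 7 genes tested, 5 were above the median mRNA (H3-3B, MACROH2A1, H3-3A, H2AZ1 and H2AZ2) and the intronless H2AX and H1-10 were below it, by edgeR's quasi-likelihood test at a Benjamini-Hochberg adjusted p under 0.05. Of all 10007 TUs tested, 40.3% were above and 49.9% below, so a call alone says little. The sizes ran from 19.4-fold above to 5.39-fold below. Tested against a 2-fold difference, H3-3B, MACROH2A1 and H3-3A were above and H1-10 was below, where 21.5% of all TUs were above and 29.2% below. The median of the 7 was 0.63, against 0.00 for all 8790 mRNAs and -0.22 for all TUs tested.

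On its counted model H3-3B had the longest relative half-life of the 7, at a log2 value of 4.28 ± 0.06 (SE from the fit to 4 and 2 libraries, adjusted p = 2.5e-32), or 19.4-fold above the median mRNA and above 99.2% of mRNAs. The spread between replicates was 0.268. The size rests on the transcript model. With the PRO-seq length set to the 704 bp shared with the canonical transcript, the log2 value was 1.32 (adjusted p = 6.1e-18), below MACROH2A1 at 2.05 under the same change, so its first place was lost. Counts from the whole window were kept in that setting, so 1.32 is not a value of the canonical transcript.

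MACROH2A1, counted on its canonical transcript, stood at 1.93 ± 0.04 (3.81-fold, adjusted p = 6.6e-28). Its RNA-seq and PRO-seq levels did not overlap, and the replicate SD was 0.0469. Without any correction for length, on the CPM scale (counts scaled by library total alone), the value was 0.08 (adjusted p = 0.054). Its PRO-seq count was collected over 63851 bp and its RNA-seq count over 1917 exonic bases.

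H3-3A, the other H3.3 gene, stood at 1.16 ± 0.06 (2.23-fold, adjusted p = 5.1e-17), with the uncertainty from its repeated windows. H2AZ1 reached 0.63 ± 0.07 (1.55-fold, adjusted p = 8.9e-10) and H2AZ2 0.21 ± 0.05 (1.16-fold, adjusted p = 0.00017). As counted, both H2A.Z genes lay between the quartiles of all mRNAs, -1.06 and 1.08. Neither passed the test against a 2-fold difference (adjusted p = 1 for each). With the PRO-seq length shared with the canonical transcript, H2AZ2 was at -0.05 (adjusted p = 0.35), and with the exon length shared with it, at 3.21. Both settings kept all counts and changed the lengths alone. H2AZ1 was at 1.57 with the shared exon length and at 4.38 as CPM, both above the upper quartile.

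H1-10 had the shortest relative half-life of the 7, at -2.43 ± 0.17 (5.39-fold below, adjusted p = 3.6e-14), lower than all but 6.86% of mRNAs. H2AX stood at -1.14 ± 0.13 (2.20-fold below, adjusted p = 3.2e-09). In both genes every PRO-seq library had a higher TPM than every RNA-seq library. The same held for H2AZ2, which was called above, so this alone does not place a gene below the median. The median mRNA itself had 31.1 TPM in RNA-seq and 49.7 TPM in PRO-seq. Only 516 bp of H1-10 and 592 bp of H2AX are left for PRO-seq after 1000 bp is taken off. With 500 bp taken off the values were -1.50 and -0.31. PRO-seq reads in TUs of at most 1000 bp leave the window truly counted uncertain, and with it the size of these values. As CPM, with no length, both turned to above the median mRNA, at 2.33 and 3.49. That shift follows from leaving out the lengths, so it does not show whether the lower values hold. On that scale all 7 fitted values were over 0, and edgeR called 6 above and none below, against 43.0% and 48.5% of all TUs. Against a 2-fold difference H2AX did not pass (edgeR adjusted p = 0.085).

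Low values were common among mRNAs with 1 exon. Of 128 such mRNAs tested, 93 were called below the median mRNA (72.7%) and 8 above, with a median of -1.65, so that H2AX was above and H1-10 below that median. Of 8662 mRNAs with 2 or more exons, 44.5% were below and 46.0% above, with a median of 0.02. A short PRO-seq window went with a smaller shift: the 119 mRNAs with under 1000 bp left for PRO-seq had a median of -0.27, with 45 below and 38 above. The part of intron number and of window length in the values of H1-10 and H2AX cannot be told apart here. For H2AX, RNA-seq was also scaled to the whole 1592 bp, although 1024 bases follow its stem-loop. The part of mRNAs that end at the stem-loop in its value was not tested.

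**Figure D2:**
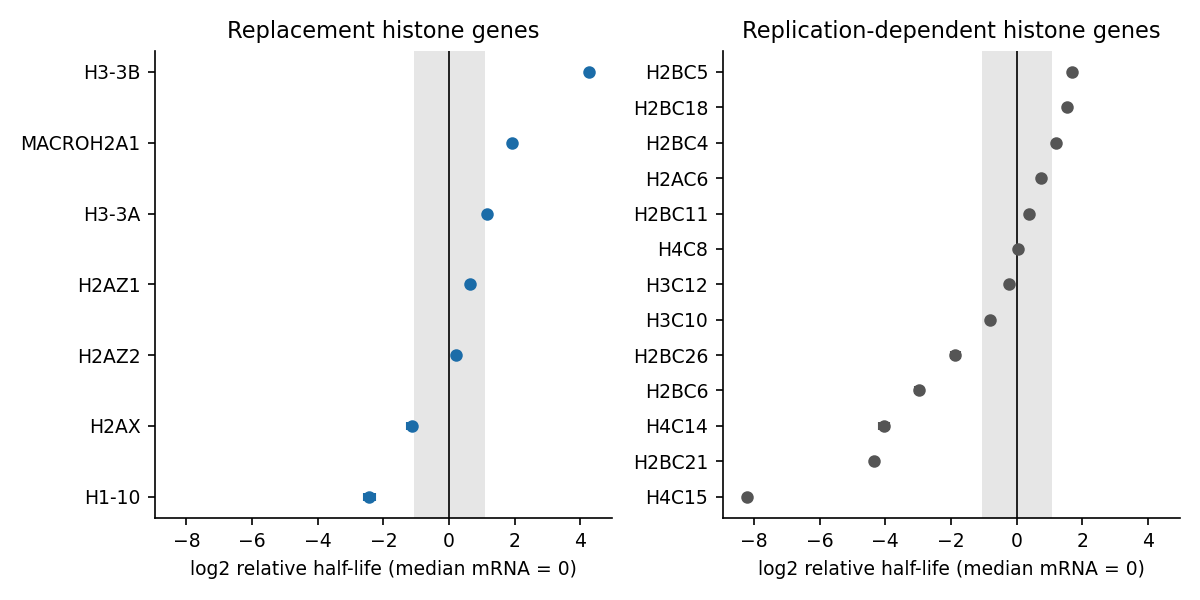
Log2 relative half-life with its SE for the 7 replacement histone genes tested (left) and the 13 replication-dependent histone genes tested (right), with 0 at the median mRNA and a grey band between the quartiles of all mRNAs, -1.06 and 1.08. Replacement genes run from -2.43 (H1-10) to 4.28 (H3-3B) and replication-dependent genes from -8.22 (H4C15) to 1.69 (H2BC5).

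**Figure D3:**
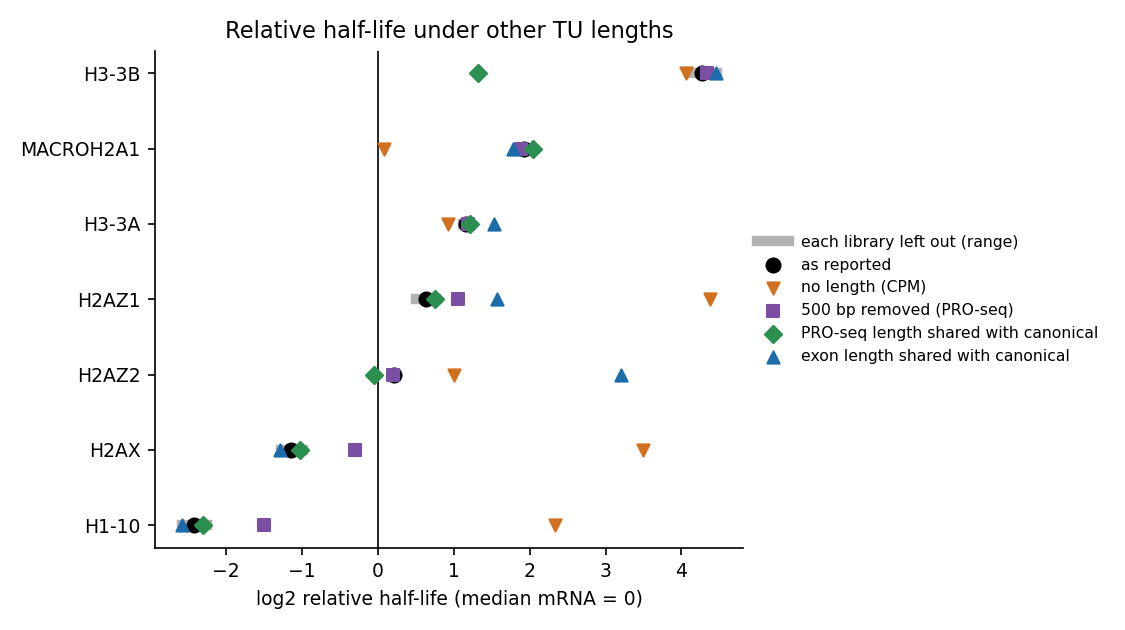
Log2 relative half-life of the 7 genes as reported (black), as a range when each library is left out (grey bar) and under other TU lengths (coloured marks). The bars are short beside the shifts from length: H3-3B goes from 4.28 to 1.32 with the PRO-seq length shared with the canonical transcript, and H1-10 and H2AX go from below 0 to 2.33 and 3.49 without length.

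The variants H3.3, H2A.Z and macroH2A are each made from a pair of genes, and the share of the second gene in the pair's TPM needs no scaling between libraries. H3-3B made up 87.4, 87.3, 87.7 and 86.6% of H3.3 RNA in RNA-seq, and 41.3 and 46.4% in PRO-seq. Of the exonic 75-base windows, 66.8% of those of H3-3A were found elsewhere, against 13.6% for H3-3B. Records not placed uniquely were left out, so RNA-seq reads of H3-3A can be missing, which would raise the RNA-seq share of H3-3B. The size of this was not tested. The mean share was 87.3% ± 0.459 (SD, n = 4) against 43.9% ± 3.63 (SD, n = 2), a difference of 43.4 percentage points, and the libraries did not overlap. Exact permutation of 4 against 2 libraries cannot give less than 0.0667, and it gave p = 0.0667 here (two-sided, also after Benjamini-Hochberg adjustment over 3 pairs). With both lengths shared with the canonical transcripts and the counts unchanged, the shares were 85.6 and 86.2%, a difference of -0.594 (exact permutation p = 0.6).

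By TPM, H2AZ2 made up a minor share of H2A.Z in every library. It took 15.2, 13.7, 14.7 and 14.5% in RNA-seq and 19.9 and 17.3% in PRO-seq, lower in RNA-seq by 4.06 percentage points in the means, -4.06 as RNA-seq minus PRO-seq, without overlap (exact permutation p = 0.0667, the smallest possible). With both lengths shared with the canonical transcripts and the counts unchanged, the sign turned, at 41.3% in RNA-seq and 22.9% in PRO-seq, a difference of 18.4. H2AZ1 had the larger share in both assays under both of these lengths. Without length, as CPM, H2AZ2 had 26.0% in RNA-seq but 78.4% in PRO-seq, a difference of -52.4.

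MACROH2A2 gave 3 of 9016 macroH2A counts in RNA-seq, or 0.0333% (exact Clopper-Pearson 95% interval 0.00686 to 0.0972%), and 16 of 4722 in PRO-seq, or 0.339% (0.194 to 0.550%). Counts of 0 in RNA-seq replicates 2 and 4 allow shares of up to 0.110% and 0.157%. By TPM the shares were 0.0330% and 0.364% (exact permutation p = 0.0667, the smallest possible). PRO-seq replicate 2 held 13 of the 16 counts. MACROH2A1 was thus the source of nearly all macroH2A reads in these cells, at both levels.

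**Figure D4:**
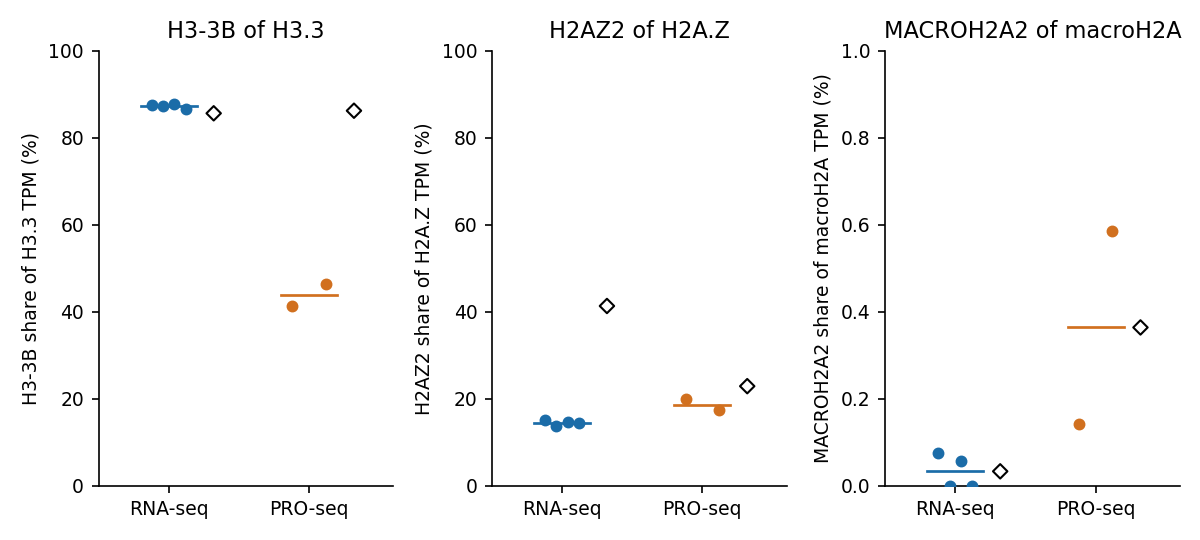
Share of the second gene in the TPM of each pair, in percent, with 1 point per library, a line at the mean, and an open diamond for the mean with both lengths shared with the canonical transcripts (the macroH2A axis ends at 1%). H3-3B goes from 87.3% in RNA-seq to 43.9% in PRO-seq, but the diamonds, with the counts unchanged, stand at 85.6 and 86.2%.

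Of the replication-dependent histone genes, 22 had a counted transcript, and 13 of them could be tested. In 7 the TU is too short to leave any length for PRO-seq. Of the 13, 5 were above the median mRNA (38.5%) and 7 below (53.8%), near the 40.3% and 49.9% of all TUs, and H4C8 was not called, at 0.05 (adjusted p = 0.27). Their median was -0.23, lower than that of the replacement genes by 0.87 on the log2 scale (difference -0.87). Over the 8 choices of 1 RNA-seq and 1 PRO-seq library, that difference ran from -1.11 to -0.659. It was -0.13 with the exon length shared with the canonical transcript and -6.72 with the PRO-seq length shared with it, where only 2 replication-dependent genes remained. It is given with no test, since genes are not replicates of a condition.

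Genes above the median were H2BC5 (1.69), H2BC18 (1.55), H2BC4 (1.19), H2AC6 (0.75) and H2BC11 (0.37), which encode H2B and H2A. For H2BC18, 65.4% of the 75-base windows were found elsewhere, so its value is uncertain. Genes below were H3C12 (-0.23), H3C10 (-0.82), H2BC26 (-1.86), H2BC6 (-2.97), H4C14 (-4.03), H2BC21 (-4.34) and H4C15 (-8.22). Every gene above the median had been counted on a model with 2 exons, as had H3C12, H4C14 and H4C15 below it. Many of the counted models run far past the short canonical gene: in 9 of the 13 the PRO-seq window held no base of the canonical transcript, and in only 2, H2BC21 and H2BC6, did it hold at least 100 bp. If the ends were left out as stated, the PRO-seq level of most of these genes was read outside the histone gene itself. Their relative half-lives describe the counted model.

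H2BC21 was counted on its canonical transcript of 2224 bp with 1 exon. It has its stem-loop at base 480, before the assumed PRO-seq window, which leaves out the first 500 bp. It had 1284, 1228, 870 and 816 RNA-seq counts and 1412 and 1374 PRO-seq counts over a window of 1224 bp. Its level was 139 TPM in RNA-seq and 4591 TPM in PRO-seq. H4C15 had 10, 11, 4 and 13 RNA-seq counts and 3352 and 3515 PRO-seq counts, and 86.6% of its exonic 75-base windows were found elsewhere, the same share as in H4C14. Whether its PRO-seq reads, assigned here to a window with no base of the canonical transcript, fall in repeated sequence was not tested.

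Genes with no length left for PRO-seq still had reads, so in them the counted stretch was not the one assumed for the lengths. H2AC11 had 12301, 12433, 8244 and 9093 RNA-seq counts and 1014 and 903 PRO-seq counts, the most RNA-seq counts of all 22. H4C5 had 12968 RNA-seq and 990 PRO-seq counts in all, H4C9 had 6379 and 94, and H2BC9 had 1697 and 223. H3C14 and H3C15, whose 75-base windows were all found elsewhere, had 90 and 175 RNA-seq counts and 2029 and 192 PRO-seq counts.

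The partners of the replacement histones were listed by role, and their counts stand beside 40.3% above and 49.9% below for all TUs tested and 45.4% and 44.9% for mRNAs. Partner values also rest on the lengths of the counted models. Values under other lengths are not given for them, so the highest and lowest genes named may depend on the model. Of 11 tested genes of the complexes that exchange H2A.Z, 9 were above the median mRNA and 2 below, with a median of 1.85 against -0.22 for all TUs tested. ZNHIT1, a subunit of the SRCAP complex, had the highest value at 3.64, and EP400, the large ATPase of the p400 complex, the lowest at -2.74. Of 8 genes of H3.3 deposition, 5 were above and 2 below, with a median of 0.28. DEK was highest at 1.69 and UBN2, a partner of HIRA, lowest at -1.41.

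Of 11 histone chaperones and assembly factors, 6 were above and 4 below, with a median of 0.12. MCM2, a helicase subunit that binds histones, was highest at 2.39 and ASF1B lowest at -1.19. Of 11 genes that act with H2AX in the response to DNA breaks, 7 were above and 4 below, with a median of 0.13, from PPP4C at 2.31, a phosphatase subunit acting on phosphorylated H2AX, to MDC1 at -2.34, which binds phosphorylated H2AX. Among 5 genes related to macroH2A and PARP, 3 were above and 1 below, with a median of 1.96, from HDAC2 at 3.59 to OARD1 at -1.35. Of 12 genes that process replication-dependent histone mRNA, 5 were above and 6 below, with a median of -0.16, from CPSF3, the endonuclease, at 2.67 to SYMPK, a scaffold of the cleavage complex, at -1.64.

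The genes whose levels lay nearest to each replacement gene, by Euclidean distance over the log2(TPM + 1) of the 6 libraries, were named with no test. H3-3B was nearest to SNRPD2 (distance 0.241) and PTMA (0.645). H2AZ1 was nearest to RPL29 (0.267) and TPT1 (0.318), and MACROH2A1 to PTP4A2 (0.118) and NCOA4 (0.169). H2AZ2 was nearest to KHSRP and SNRPA, H3-3A to CRKL and PICALM, H2AX to PABPC4 and HNRNPA3, and H1-10 to GPANK1 and ARRDC3. For MACROH2A2 no gene past the thresholds was close, and SP110 was nearest at 4.45.

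Library depth was 5732780 to 9002746 counts on TUs in RNA-seq and 6993816 and 7245632 in PRO-seq. Markers of K562 cells (GATA1, TAL1, KLF1 and fetal globin genes among them) were all above 1 TPM in RNA-seq, 10 of 10, with a summed level of 12223 to 13111 TPM. In PRO-seq 7 of 10 were above 10 TPM, with a sum of 1900.3 to 1954 TPM, and the globin genes HBE1, with no PRO-seq count, and HBG2, at 0.222 and 0.244 TPM, were among those below. HBG2 had 29 PRO-seq counts at 0.233 TPM over summed counts, and HBG1 had 63 at 215.8 TPM. The low TPM of HBG2 thus rests on the length of its counted model and does not show that it is hardly transcribed. Of 5 markers of other cells in the files, EPCAM had 117 to 124 TPM and the other 4 stayed below 1 TPM in RNA-seq. The part of other cells in the levels of the histone genes was not tested.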

How the data were processed

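The authors trimmed reads with Cutadapt, aligned them with HISAT2 to GRCh38 and deposited raw HTSeq counts per transcript, without normalization, for 4 RNA-seq and 2 PRO-seq libraries. For these tools, versions and HTSeq's strand setting were not stated. The PRO-seq label names 500 bp left out, and the methods say at each end, so 1000 bp was removed from the PRO-seq lengths. Yet 24 of the 84 TUs of at most 1000 bp had PRO-seq counts. The stretch that the deposited counts cover is therefore uncertain, and lengths with nothing taken off were not tried. Rows naming no TU held 66.5 to 68.6% of RNA-seq records and 86.5 or 88.6% of PRO-seq records and were left out.

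The transcripts were joined by identifier to GENCODE lifted to GRCh37, which matched 88.1% of 42371, and all lengths and coordinates of transcripts are from it. TPM was computed over 35231 TUs of mRNA, lincRNA, antisense and pseudogene class with exon length for RNA-seq and span minus 1000 bp for PRO-seq. TUs with PRO-seq TPM over 10 and RNA-seq TPM over 1 were tested on the counts by the quasi-likelihood test of edgeR 4.0.16 (R 4.3.3) with TMM, length offsets, centring on the median mRNA and Benjamini-Hochberg adjustment over all TUs. DESeq2 1.42.0 was an alternative. The replicate SD comes from the variances of log2 TPM in each assay. The fit was tested on simulated data, and repeated windows were found with blastn 2.17.0. Genes named are the 8 replacement genes, replication-dependent histone genes with at least 10 counts in both assays, the highest and lowest of each list, and the 2 nearest to each replacement gene. The genes and lists were chosen with earlier results of these data known. No pairing of the libraries by replicate number was seen (r = -0.0111 between the differences of replicates 1 and 2 over 9915 TUs). With cells from a shared flask this check cannot exclude a pairing. RNA-seq replicates 1 and 3 had 28.0 and 27.9% of records not unique, and replicates 2 and 4 had 24.9 and 24.5%. Whether these are technical pairs is not stated.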

Additional observations from a re-analysis of the deposited data

How the results depend on the processing

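Library totals in place of TMM, DESeq2, stricter TPM thresholds, the median of all TUs as reference and summing the close pairs of RNA-seq libraries (1 with 3, 2 with 4) kept all 7 replacement genes on their side of the median mRNA and past the threshold. So did leaving out each library, which gave 5 genes above and 2 below each time, with 3906 to 4026 of all TUs above and 4821 to 4983 below. The replicate block, with numbers for which no pairing was seen, gave 5 above and 2 below and all TUs at 3944 above and 4891 below. As CPM without length, H1-10 was at 2.33 and H2AX at 3.49, both reversed, and 0 genes were below, with 6 above. These shifts follow from the lengths left out. Against a 2-fold difference 3 genes were above and 1 below, with 2155 and 2918 of all TUs. At a minimum of 1 summed count 6633 TUs were above and 7589 below, and the replacement genes shifted up together on the log2 scale, H2AX to -0.48, H2AZ1 to 1.29 and H2AZ2 to 0.87. With the PRO-seq length shared with the canonical transcript (chosen after seeing the data, as were the other canonical lengths), H2AZ2 was at -0.048, reversed. All settings with canonical lengths kept the counts of the counted models. The difference of medians between replication-dependent and replacement genes was -1.25 at 1 summed count, -1.43 as CPM, -6.72 with the canonical PRO-seq length, where 2 replication-dependent genes remained, and -0.13 with the canonical exon length. It ran from -0.965 to -0.781 when a library was left out. With both canonical lengths the share of H3-3B differed by -0.594 and that of H2AZ2 by 18.4 percentage points, both reversed. Other than these lengths' own construction, the cause was not tested. Depth limits MACROH2A2 and the short PRO-seq windows of H1-10 and H2AX most, and intervals cover counting error only.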

Other observations

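Of 10 further replacement or variant histone genes listed, 6 were in the files and only CENPA, the centromeric H3 variant, passed the thresholds, at a log2 relative half-life of 0.51 ± 0.07 (edgeR adjusted p = 1.6e-07). H3-5, a retrocopy of an H3.3 gene, had 958 RNA-seq counts over 4 libraries and 0 PRO-seq counts. Its exons were not searched for repeated windows, and the length left to it for PRO-seq is not given here. The 0 PRO-seq counts therefore do not show a lack of transcription. H2AJ, an H2A variant, had 9 in RNA-seq and 1 in PRO-seq. None of 6 replication-dependent linker histone genes was among the counted transcripts matched.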
